A study of Rattus norvegicus with 27 samples.

Results

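The 10 genes described here encode sensors, transcription factors and chaperones of the unfolded protein response, the programme that cells use when proteins fail to fold in the endoplasmic reticulum (ER). They are Atf6, Ern1, Eif2ak3, Xbp1, Atf4, Ddit3, Hspa5, Hsp90b1, Dnajb9 and Sdf2l1, taken by gene name from the 17315 genes of the cell mRNA table. All 10 had a row and all 10 were among the 10372 genes that passed the filter on low counts. The rule used no measured value, but the 10 genes were chosen with earlier results of these data known.

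The cells were primary rat Schwann cells, the glia that wrap axons of peripheral nerves, bought from a commercial source and grown without neurons. They were compared at 3 culture stages with 3 libraries each, which the labels call biological replicates without naming separate animals, so p-values measure the spread between these libraries. Undifferentiated cells never received dibutyryl cyclic AMP (dbcAMP), a membrane-permeant form of cyclic AMP that drives cultured Schwann cells towards a myelinating state. Differentiated cells were starved overnight and then held for 72 h in medium with 1% fetal bovine serum (FBS) and 1 mM dbcAMP. Dedifferentiated cells had that same treatment and then spent 72 h in complete medium without dbcAMP, with 10% FBS, forskolin (which raises cyclic AMP) and 10 ng/mL neuregulin (a Schwann cell mitogen). For undifferentiated cells the labels give no medium at harvest other than the lack of dbcAMP, so stage, serum and growth factors cannot be told apart.

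Unfolded protein in the ER is sensed by 3 membrane proteins: PERK (gene Eif2ak3), IRE1 alpha (Ern1) and ATF6 (Atf6). PERK is a kinase that phosphorylates the translation factor eIF2 alpha, which slows protein synthesis while favouring translation of ATF4, and ATF4 in turn drives Ddit3, the gene of the pro-apoptotic factor CHOP. IRE1 alpha splices Xbp1 mRNA so that it encodes an active transcription factor. ATF6 moves to the Golgi apparatus, where site-1 and site-2 proteases release its transcription factor domain. ATF6 and XBP1 drive genes for ER chaperones and for the disposal of misfolded protein. Myelinating Schwann cells send large amounts of myelin protein such as P0 through the ER, and misfolded P0 in inherited neuropathies is known to engage this response. The values below are total mRNA per gene. They do not separate spliced from unspliced Xbp1 and do not measure phosphorylation, cleavage or translation, which are the steps that switch the sensors on.

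The promoters shown here are those of the members with an ER stress response element (ERSE), the motif through which ATF6 and the factor NF-Y act on ER chaperone genes. RefSeq promoter windows on build GRCr8, from 250 bases before the annotated start to 50 bases from it on, were matched for 8 of the 10 members (not Atf6 and Ern1). The ERSE, searched as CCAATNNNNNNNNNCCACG on both strands, was found in Hspa5, Xbp1 and Hsp90b1, against 20 of all 33469 windows (0.0598%) and 16 of the 7956 tested genes with a window (0.201%). The 250 bases before each start are printed 5′ to 3′ on the gene's strand, with the fixed letters of the ERSE in capitals. Hspa5 lies on the plus strand at chr3:38452766-38453015, Xbp1 on the plus strand at chr14:84604373-84604622 and Hsp90b1 on the minus strand at chr7:23012294-23012543.
Hspa5: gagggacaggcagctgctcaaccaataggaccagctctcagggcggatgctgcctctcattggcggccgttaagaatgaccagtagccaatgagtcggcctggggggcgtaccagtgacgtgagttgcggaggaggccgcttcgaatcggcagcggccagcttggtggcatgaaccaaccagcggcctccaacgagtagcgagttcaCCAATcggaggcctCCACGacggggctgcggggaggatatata
Xbp1: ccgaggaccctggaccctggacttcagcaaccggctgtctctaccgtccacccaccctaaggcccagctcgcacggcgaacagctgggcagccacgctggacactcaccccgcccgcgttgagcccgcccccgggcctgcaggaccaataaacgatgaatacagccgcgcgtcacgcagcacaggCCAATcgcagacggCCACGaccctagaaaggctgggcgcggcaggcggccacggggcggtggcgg
Hsp90b1: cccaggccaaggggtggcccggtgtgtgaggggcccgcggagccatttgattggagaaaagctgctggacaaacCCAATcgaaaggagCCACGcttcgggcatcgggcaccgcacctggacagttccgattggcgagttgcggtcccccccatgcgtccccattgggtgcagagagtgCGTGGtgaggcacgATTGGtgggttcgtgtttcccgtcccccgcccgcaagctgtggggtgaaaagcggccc

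Hspa5 holds 1 exact match to the ERSE, 43 to 25 bases before the start, and Xbp1 holds 1, 65 to 47 bases before it. Hsp90b1 holds 2 that do not overlap: 1 on the strand of the gene, 176 to 158 bases before the start, and 1 on the other strand, 72 to 54 bases before it. The other motifs searched on both strands were ERSE-II (ATTGG and CCACG 1 base apart, in 0.0508% of all windows), the XBP1 and ATF6 site UPRE (TGACGTGG, 0.568%), the ATF4-type amino acid response element (TGATGCAA, 0.765%) and the cyclic AMP response element (TGACGTCA, 1.82%). None of these 4 was found in the 8 member windows, which says only that these letters are not there. Imperfect copies of the ERSE or of the other motifs were not searched. A match is a description of sequence and not of binding.

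The libraries held 10058732 to 16212282 estimated counts, and levels are given as CPM, the count of a gene scaled to a common library total. A count of 3 corresponded to 0.185 to 0.298 CPM. The lowest member count in any library was 99, for Ern1. Replicates 1 and 2 of each stage carry one sequencing project number in the labels and replicate 3 another. Values within replicates 1 and 2 (called the first project below) and in replicate 3 alone are therefore given beside the called changes. The first-project values are edgeR log2 changes with TMM scaling. Those of replicate 3 are plain differences of log2 CPM, so the measures are not the same. All 7 Schwann cell markers in the table passed the filter, with a summed level of 8242 to 9425 CPM in undifferentiated, 8445 to 11076 in differentiated and 18542 to 21433 in dedifferentiated libraries. Of 8 fibroblast markers, Lum was at 0 throughout and Pdgfra, Dcn, Dpt and Thy1 averaged under 1 CPM at each stage, while the collagen genes Col1a1 and Col1a2 made up nearly all of a sum of 24365 to 29065, 11929 to 15591 and 15938 to 19353 CPM at the same stages. Summed over all 6 macrophage, 5 endothelial and 5 pericyte or smooth muscle markers, no library passed 5.17, 8.26 and 13.8 CPM, with Aif1, Adgre1, Cdh5, Cldn5 and Rgs5 at 0. These sums differed between stages (macrophage 0.322 to 1.64 against 3.64 to 5.17 and 1.96 to 3.48, endothelial 1.21 to 3.08 against 5.67 to 8.26 and 3.98 to 7.88, pericyte or smooth muscle 6.22 to 11.7 against 4.2 to 4.86 and 8.14 to 13.8), and their part in the results was not tested.

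Among the 10 genes, the factor Xbp1 fell under dbcAMP and rose again after withdrawal, the sensor Atf6 took the opposite course, and Ddit3 was highest after withdrawal. The difference between the highest and lowest of the 9 libraries was 1.16 on the log2 scale for Ddit3, 1.08 for Xbp1 and 0.77 for Atf6, and it was 0.47 for Hspa5 and 0.33 for Hsp90b1. Hspa5 and Hsp90b1, the abundant ER chaperones, passed the test in none of the 3 comparisons. Between differentiated and undifferentiated cells 5 of 10 members passed edgeR's test at an adjusted p under 0.05, 1 higher and 4 lower, and without differentiated replicate 2 there were 3, 1 higher and 2 lower. In that comparison 59.6% of all tested genes were called, 31.7% higher and 27.9% lower, so the members' share was near the background. For 4 members every library of one stage lay beyond every library of the other, which held for 66.3% of all tested genes. From differentiated to dedifferentiated cells 4 members were called, 2 in each direction, beside 46.4% of all tested genes (23.2% higher and 23.2% lower). There 4 members had ranges without overlap, as did 58.5% of all genes. Between dedifferentiated and undifferentiated cells 2 members were called, 1 in each direction, beside 29.4% of all genes (16.1% higher, 13.3% lower), and 4 did not overlap, against 43.9%. Without undifferentiated replicate 1 the 2 calls were 1. The members' median log2 change was -0.16, -0.06 and -0.20 in the 3 comparisons, and that of all tested genes 0.05, -0.01 and 0.02. The 3 comparisons share libraries in pairs and are not independent of each other.

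**Figure D1:**
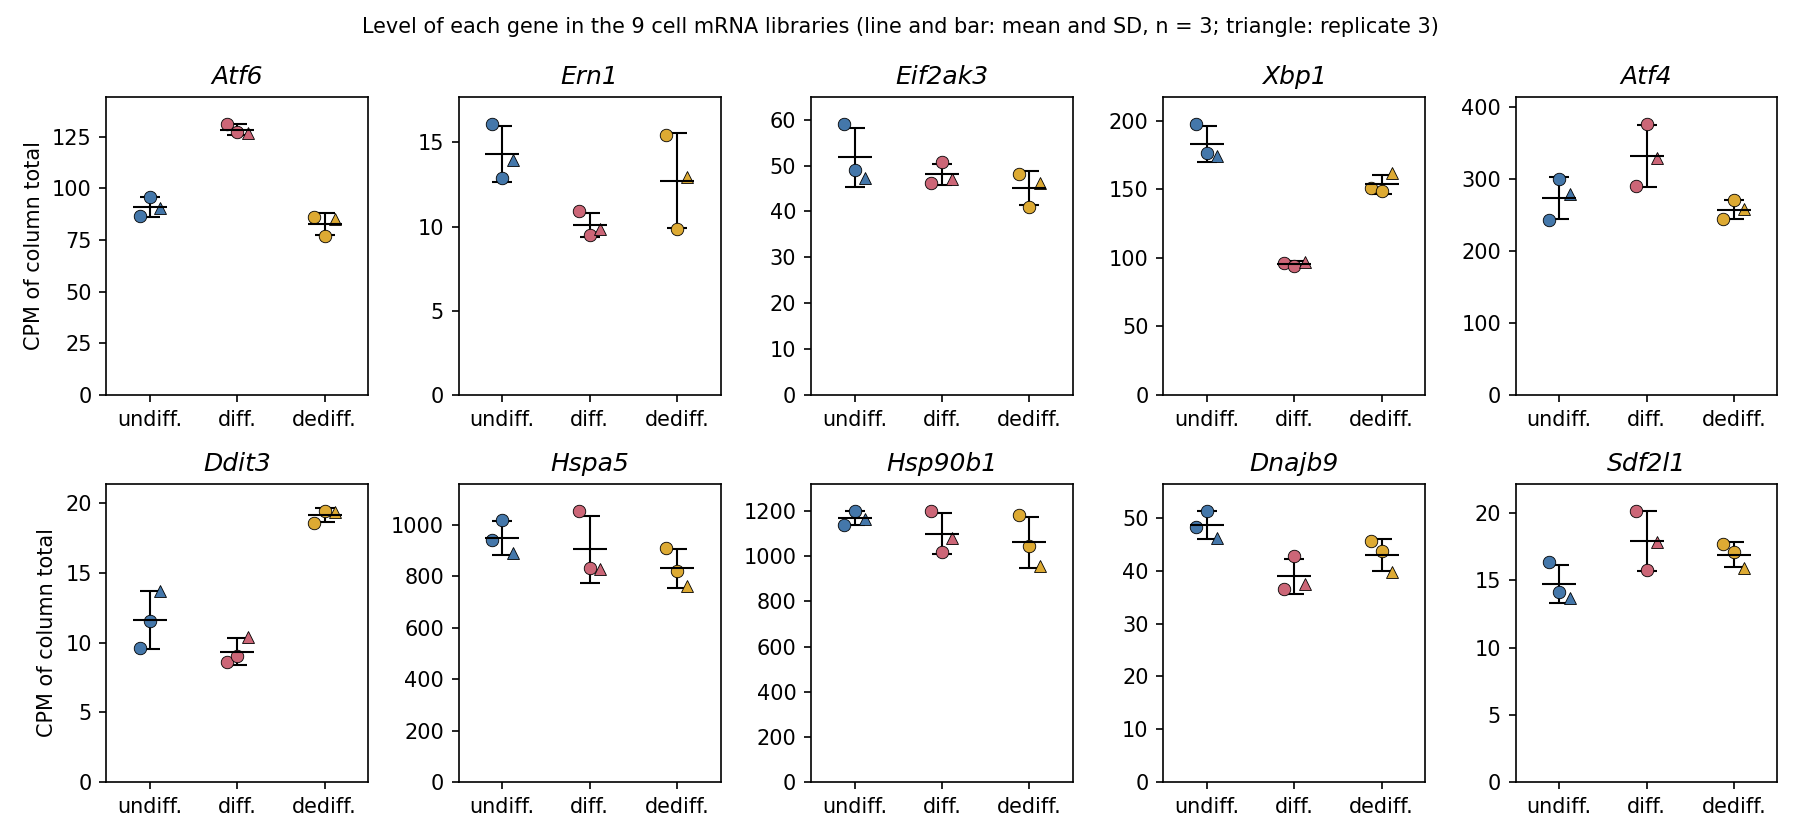
Level of each of the 10 genes in the 9 cell mRNA libraries, in CPM of the column total (y axis, from 0, own scale per gene) at the 3 stages (x axis). Circles are replicates 1 and 2, triangles replicate 3, and lines and bars the mean and SD (n = 3). Xbp1 lies lowest and Atf6 highest in the differentiated libraries, Ddit3 lies highest in the dedifferentiated ones, and the Hspa5 and Hsp90b1 libraries of the 3 stages overlap.

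Among the sensors, Atf6 stood at 86.6, 95.9 and 90.3 CPM in the undifferentiated replicates 1, 2 and 3. It reached 131, 127 and 127 CPM in the differentiated replicates and returned to 86.3, 76.8 and 85.4 CPM in the dedifferentiated ones. Every differentiated library was thus above every other library, and dedifferentiated libraries were all below the undifferentiated ones, the closest of these being 86.3 and 86.6 CPM. Means were 90.9 ± 4.64, 128 ± 2.53 and 82.8 ± 5.21 CPM (SD, n = 3 each). Atf6 rose by 0.44 on the log2 scale with dbcAMP (SE 0.08, adjusted p = 0.000592 by edgeR's quasi-likelihood test) and fell by 0.62 after withdrawal (SE 0.08, edgeR adjusted p = 9.88e-05). The dedifferentiated level was not called different from the undifferentiated one (log2 change -0.18, 95% interval -0.35 to -0.01, edgeR adjusted p = 0.104). Within the first project the 2 called changes were 0.43 and -0.65 with edgeR adjusted p = 0.0265 and 0.00941, and in replicate 3 they were 0.49 and -0.57. In bulk RNA a change in the share of cells that express a gene and a change in RNA per cell cannot be told apart.

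Ern1, the gene of the IRE1 alpha sensor, had low counts. It was at 16.1, 12.9 and 13.9 CPM in undifferentiated, 10.9, 9.49 and 9.87 CPM in differentiated and 15.4, 9.84 and 12.9 CPM in dedifferentiated replicates. The differentiated libraries lay below all undifferentiated ones, whereas dedifferentiated replicate 2 lay among the differentiated libraries and the other two lay with the undifferentiated ones. Ern1 fell by 0.57 on the log2 scale with dbcAMP (SE 0.18, adjusted p = 0.0192 by edgeR), from 14.3 ± 1.65 to 10.1 ± 0.731 CPM (SD, n = 3). After withdrawal, at 12.7 ± 2.8 CPM, it was not called against the differentiated cells (0.35, interval -0.05 to 0.75, edgeR adjusted p = 0.137) or the undifferentiated ones (-0.22, interval -0.61 to 0.18, edgeR adjusted p = 0.407). The fall was lost without undifferentiated replicate 1, differentiated replicate 2 or differentiated replicate 3 (edgeR adjusted p = 0.0655, 0.0608 and 0.0587), and in the first project it was -0.58 with edgeR adjusted p = 0.128, beside -0.49 in replicate 3. Without dedifferentiated replicate 2 the change after withdrawal was 0.51 with edgeR adjusted p = 0.0442.

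Eif2ak3, the gene of the eIF2 alpha kinase PERK, passed no test. Its levels were 59.1, 49.1 and 47.2 CPM in undifferentiated, 46.3, 50.8 and 47.1 CPM in differentiated and 48.2, 41.0 and 46.3 CPM in dedifferentiated replicates. The libraries of all 3 stages overlapped, and undifferentiated replicate 1 was the highest of the 9. The log2 change was -0.17 with dbcAMP (95% interval -0.42 to 0.07), so a fall larger than 0.42 or a rise larger than 0.07 lay outside that interval. After withdrawal it was -0.08 (interval -0.33 to 0.17). The edgeR adjusted p were 0.204 and 0.602, and 0.123 for dedifferentiated against undifferentiated cells, where the log2 change was -0.25.

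**Figure D2:**
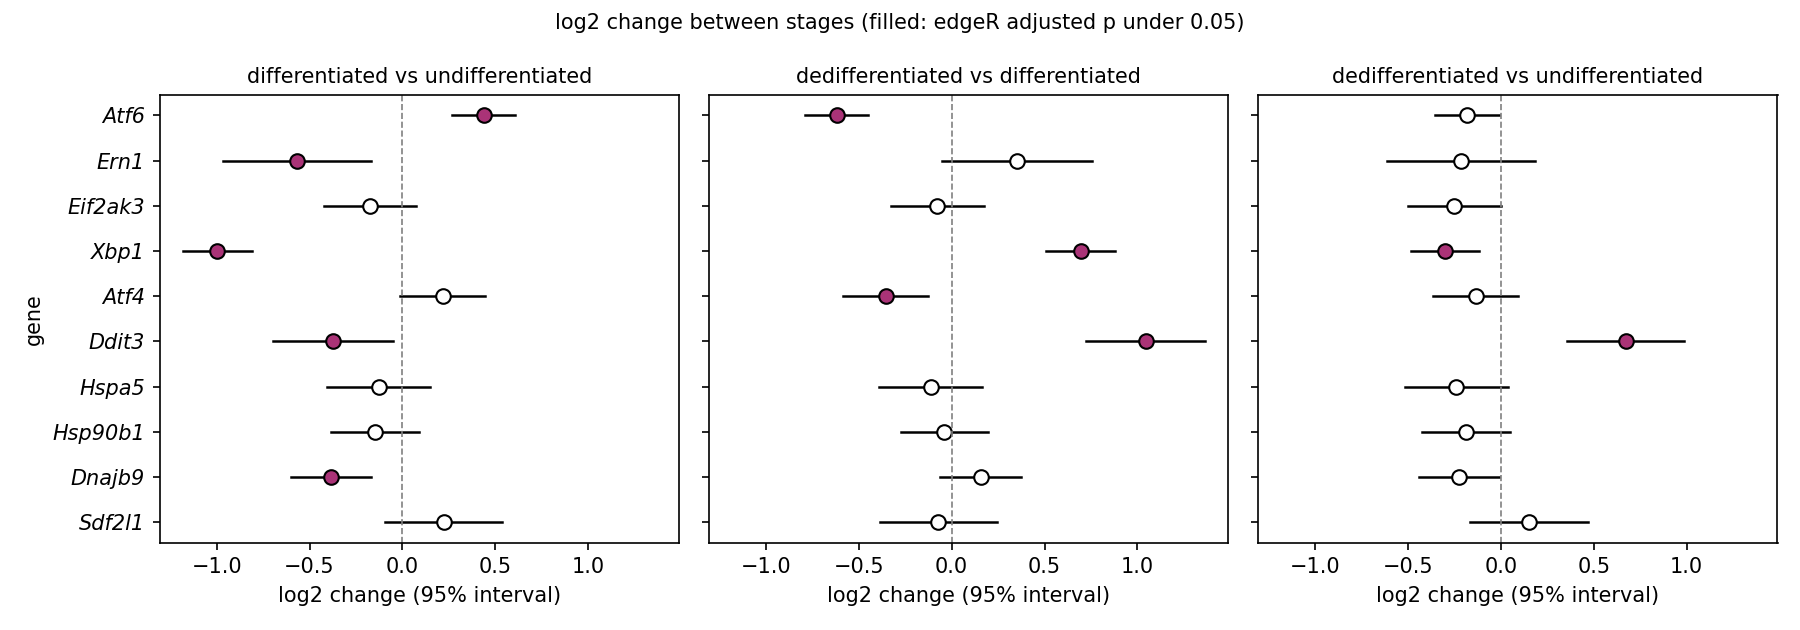
log2 change of each gene (x axis) in the 3 comparisons, from the edgeR fit of all 9 libraries. Points are estimates, bars 95% intervals, and filled points have an adjusted p under 0.05. Xbp1 and Atf6 point in opposite directions in both comparisons with the differentiated cells, and the intervals of Hspa5, Hsp90b1, Eif2ak3 and Sdf2l1 include 0 in those 2 comparisons.

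Xbp1, whose mRNA is the substrate of IRE1 alpha, had the largest change with dbcAMP of the 10 genes. Its levels were 198, 177 and 174 CPM in undifferentiated, 96.6, 93.7 and 97.1 CPM in differentiated and 151, 149 and 162 CPM in dedifferentiated replicates. The 3 stages formed 3 separate ranges, with the differentiated libraries lowest and the dedifferentiated ones between. The means were 183 ± 13.1, 95.8 ± 1.84 and 154 ± 7.13 CPM (SD, n = 3). Xbp1 fell by 1.00 on the log2 scale with dbcAMP (SE 0.08, edgeR adjusted p = 2.53e-06) and rose by 0.69 after withdrawal (SE 0.08, edgeR adjusted p = 7.54e-05). It stayed below the undifferentiated level after withdrawal (log2 change -0.30, SE 0.08, edgeR adjusted p = 0.019). Within the first project the 3 changes were -1.05, 0.67 and -0.38, with edgeR adjusted p = 0.000547, 0.00786 and 0.0842, and in replicate 3 they were -0.84, 0.74 and -0.11. The last of the 3 calls was also lost without undifferentiated replicate 1 (edgeR adjusted p = 0.0537).

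Atf4, the factor translated when eIF2 alpha is phosphorylated, changed little at the mRNA level. It was at 243, 299.8 and 279.98 CPM in undifferentiated, 291, 377 and 329.9 CPM in differentiated and 244, 271 and 258 CPM in dedifferentiated replicates. Differentiated libraries lay above all dedifferentiated ones and overlapped with the undifferentiated ones, since differentiated replicate 1 was below undifferentiated replicate 2. Atf4 fell by 0.35 on the log2 scale after withdrawal (SE 0.10, edgeR adjusted p = 0.0172), from 333 ± 43.4 to 258 ± 13.4 CPM (SD, n = 3). With dbcAMP its change from 274 ± 29.0 CPM was 0.22 (interval -0.01 to 0.45, edgeR adjusted p = 0.092), and dedifferentiated against undifferentiated cells gave -0.14 (interval -0.37 to 0.09, edgeR adjusted p = 0.36). The fall after withdrawal was lost without differentiated replicate 2, dedifferentiated replicate 1 or dedifferentiated replicate 3 (edgeR adjusted p = 0.0711, 0.0553 and 0.0553), and in the first project it was -0.36 with edgeR adjusted p = 0.15, beside -0.36 in replicate 3. Among fits without a replicate term, the change with dbcAMP was called without differentiated replicate 1 (0.30, edgeR adjusted p = 0.0353) and without a composition factor (0.28, edgeR adjusted p = 0.048).

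Ddit3, the CHOP gene and a target of ATF4, was low in all libraries and highest after withdrawal. It was at 9.59, 11.5 and 13.7 CPM in undifferentiated, 8.62, 9.03 and 10.4 CPM in differentiated and 18.6, 19.5 and 19.4 CPM in dedifferentiated replicates. All dedifferentiated libraries were above all others, and the other 2 stages overlapped. Ddit3 rose by 1.04 on the log2 scale after withdrawal (SE 0.14, edgeR adjusted p = 0.0002), from 9.36 ± 0.946 to 19.2 ± 0.51 CPM (SD, n = 3), and stood 0.67 above the undifferentiated level of 11.6 ± 2.08 CPM (SE 0.14, edgeR adjusted p = 0.00525). Within the first project these changes were 1.12 and 0.79 with edgeR adjusted p = 0.00693 and 0.0409, and in replicate 3 they were 0.89 and 0.49. Ddit3 rose while Atf4 fell between the same stages, and these 2 values come from the same 6 libraries.

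With dbcAMP Ddit3 fell by 0.37 on the log2 scale (SE 0.15, interval -0.69 to -0.05), close to the threshold (edgeR adjusted p = 0.047). Over the 17 alternatives that adjusted p ran from 0.0167 to 0.223 and passed 0.05 in 8. Without undifferentiated replicate 2, undifferentiated replicate 3, differentiated replicate 1, differentiated replicate 2 or dedifferentiated replicate 3 the call on Ddit3 was lost (edgeR adjusted p = 0.0642, 0.195, 0.125, 0.118 and 0.0688). The first project gave -0.33 with edgeR adjusted p = 0.223 for it, and replicate 3 gave -0.39.

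Hspa5 encodes BiP, the ER chaperone that holds the sensors inactive and is the usual read-out of ER stress. Its levels were 939.8, 1019.8 and 889 CPM in undifferentiated, 1056, 831 and 830.1 CPM in differentiated and 911, 820.2 and 762 CPM in dedifferentiated replicates. The ranges of the 3 stages overlapped, and the highest library was a differentiated one, replicate 1, while the other two differentiated libraries were below all undifferentiated ones. Stage means were 949.6 ± 65.8, 906 ± 129.97 and 831 ± 75.3 CPM (SD, n = 3). The log2 change was -0.13 with dbcAMP (interval -0.41 to 0.15), -0.11 after withdrawal (-0.39 to 0.16) and -0.24 over both steps (-0.52 to 0.04), with edgeR adjusted p = 0.397, 0.485 and 0.176. The highest upper bound of the 3 intervals was thus 0.16. Without differentiated replicate 1 the change after withdrawal was 0.025, again not called.

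Hsp90b1, the gene of the ER-resident HSP90 paralogue GRP94, varied least of the 10 genes over the 9 libraries. It was at 1141, 1202 and 1163 CPM in undifferentiated, 1199.6, 1018 and 1083 CPM in differentiated and 1184, 1043 and 958 CPM in dedifferentiated replicates. Ranges overlapped in every comparison, and replicate 1 was the highest library at both later stages. The log2 changes were -0.15 (interval -0.38 to 0.09), -0.04 (-0.27 to 0.20) and -0.19 (-0.42 to 0.05), with edgeR adjusted p = 0.255, 0.79 and 0.221. The sign of the change after withdrawal turned without differentiated replicate 1 (0.040) or dedifferentiated replicate 3 (0.039).

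Dnajb9 encodes ERdj4, a J-domain partner of BiP, and is known as a target of XBP1. It was at 48.3, 51.4 and 46.3 CPM in undifferentiated, 36.6, 42.8 and 37.4 CPM in differentiated and 45.6, 43.7 and 39.8 CPM in dedifferentiated replicates. Undifferentiated libraries were above all others, while the later stages overlapped. Dnajb9 fell by 0.38 on the log2 scale with dbcAMP (SE 0.10, edgeR adjusted p = 0.00618), from 48.7 ± 2.6 to 39.0 ± 3.38 CPM (SD, n = 3). At 43.0 ± 2.97 CPM after withdrawal it was called neither against differentiated cells (0.16, interval -0.06 to 0.38, edgeR adjusted p = 0.213) nor against undifferentiated cells (-0.23, interval -0.44 to -0.01, edgeR adjusted p = 0.111). Its fall with dbcAMP was -0.40 in the first project (edgeR adjusted p = 0.0408) and -0.30 in replicate 3.

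Sdf2l1, whose protein works with BiP and its J-domain partners in the ER lumen, was at 16.4, 14.1 and 13.7 CPM in undifferentiated, 20.2, 15.7 and 17.8 CPM in differentiated and 17.7, 17.1 and 15.9 CPM in dedifferentiated replicates. All ranges overlapped. The log2 changes were 0.22 (interval -0.09 to 0.54), -0.07 (-0.39 to 0.24) and 0.15 (-0.17 to 0.47), with edgeR adjusted p = 0.201, 0.704 and 0.471, and that after withdrawal was 0.034 without differentiated replicate 1.

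Over the 9 libraries, Hspa5 and Hsp90b1 ran together (Pearson r of log2 CPM 0.90), and of 7910 genes with a mean of at least 10 CPM, Hsp90b1 was the one most like Hspa5. Next came Dnajc3, which encodes another BiP partner and inhibitor of PERK (r = 0.83), Slc25a25 (0.83), Pip5k1c (0.82) and Slc35b1 (0.80). Xbp1 ran with Ern1 (0.79) and Dnajb9 (0.76) and against Atf6 (-0.87), Atf4 (-0.74) and Sdf2l1 (-0.58). With Hspa5 and Hsp90b1 its r was only 0.06 and 0.17. Ern1 ran against Atf4 (-0.775), and Dnajb9 against Sdf2l1 (-0.70). Atf6 ran with Atf4 (0.77) and against Ddit3 (-0.79). The genes most like Ddit3 were Usp20 (0.98), Stat2 (0.97), Tmbim1 (0.97), C2cd2 (0.97) and Eif4a2 (0.96). These are descriptions over 9 points that share 3 stages and the same library totals.

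The partners of the members in the pathway were read from lists chosen with earlier results of these data known, as counts of called genes beside the background above. Of 23 genes listed as ATF4 targets and tested, 9 were higher and 6 lower with dbcAMP (median log2 change 0.08), and 4 were higher and 13 lower after withdrawal (median -0.83, against -0.01 for all tested genes). The amino acid transporter subunit Slc7a5 rose from 81.2 ± 4.73 to 704.7 ± 196 CPM with dbcAMP and stood at 268 ± 6.85 CPM after withdrawal (SD, n = 3). Its rise was 3.06 on the log2 scale (SE 0.18, edgeR adjusted p = 1.85e-07), of which 1.68 was left over both steps (SE 0.17, edgeR adjusted p = 4.62e-05). Psph, the last enzyme of serine synthesis, rose by 1.76 (SE 0.11, edgeR adjusted p = 2.14e-07) and fell by 1.00 after withdrawal (SE 0.10, edgeR adjusted p = 2.51e-05). The mitochondrial serine enzyme Shmt2 fell by 1.30 after withdrawal (SE 0.11, edgeR adjusted p = 5.91e-06).

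Other listed ATF4 targets took the opposite course to Slc7a5 and Psph. The stress-induced factor Atf3 fell by 3.42 with dbcAMP (SE 0.33, edgeR adjusted p = 7.64e-06) and rose by 3.47 after withdrawal (SE 0.33, edgeR adjusted p = 1.58e-05), with means of 1379 ± 467, 135 ± 63.7 and 1481 ± 166 CPM (SD, n = 3). The cystine transporter Slc7a11 fell by 4.74 with dbcAMP (SE 0.40, edgeR adjusted p = 2.86e-06), from 57.7 ± 5.76 to 2.23 ± 1.61 CPM, and at 9.66 ± 3.57 CPM was still below the undifferentiated level after withdrawal (log2 change -2.62, SE 0.35, edgeR adjusted p = 0.000279). Over both steps 6 of the 23 were higher and 6 lower (median -0.07). Slc3a2, the heavy chain shared by Slc7a5 and Slc7a11, was 0.88 higher (SE 0.11, edgeR adjusted p = 0.000245) and the mitochondrial folate enzyme Aldh1l2 was lower (log2 change -3.29, SE 0.53, edgeR adjusted p = 0.00102). Many of these genes have other regulators, so the list does not read out ATF4 alone.

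**Figure D3:**
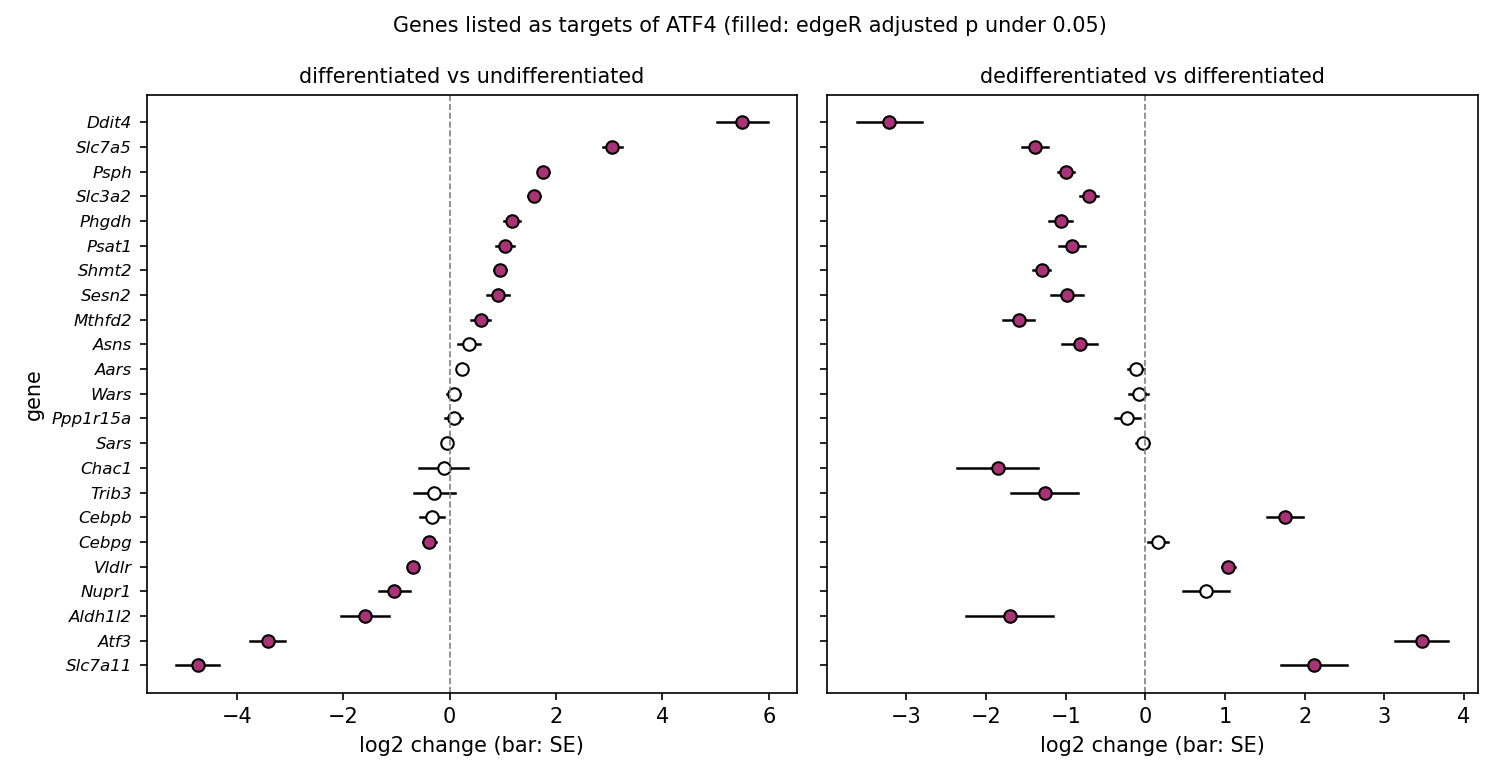
log2 change (x axis) of the 23 tested genes listed as ATF4 targets, with dbcAMP on the left and after withdrawal on the right. Points are edgeR estimates, bars their SE, and filled points have an adjusted p under 0.05. Slc7a5 and Psph lie right of 0 on the left and left of it on the right, Atf3 and Slc7a11 the reverse; both panels share the differentiated libraries.

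Beside the sensor PERK, 13 genes were tested, of the other eIF2 kinases, eIF2, its exchange factor eIF2B, its phosphatase partner and the PERK inhibitor Dnajc3. Dnajc3, which is also counted among the folding genes below, was called in no comparison. With dbcAMP 7 of the 13 were higher and 3 lower (median 0.26), after withdrawal 3 and 5 (median 0.03), and over both steps 3 and 3 (median -0.06). Ppp1r15b, which directs phosphatase to eIF2 alpha in unstressed cells, rose by 1.42 with dbcAMP (SE 0.10, edgeR adjusted p = 5.97e-07) and fell by 1.25 after withdrawal (SE 0.10, edgeR adjusted p = 4.03e-06), from 87.1 ± 7.49 to 243 ± 23.5 and 101 ± 7.79 CPM (SD, n = 3). The eIF2B subunit Eif2b1 rose by 0.70 and fell by 0.76 (edgeR adjusted p = 6.99e-05 and 7.76e-05). Eif2ak4, the amino acid-sensing kinase GCN2, took the reverse course: it fell by 1.01 and rose by 0.58 (edgeR adjusted p = 2.09e-06 and 0.000237). Of the other eIF2 kinases, Eif2ak2 fell by 0.60 with dbcAMP (edgeR adjusted p = 0.000627) and Eif2ak1 rose by 0.48 after withdrawal (edgeR adjusted p = 0.00117), to 0.74 above the undifferentiated level (edgeR adjusted p = 0.000137).

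Of 11 tested relatives, proteases and partners of ATF6, 2 were higher and 5 lower with dbcAMP (median -0.18), 4 were higher and 0 lower after withdrawal (median 0.02, with 1 lower at an unadjusted p under 0.05 and 0 by the DESeq2 Wald test), and 1 was higher and 1 lower over both steps (median -0.05). Creb3l1, an ER-membrane factor cleaved like ATF6 and known for driving collagen secretion, was at 165, 111 and 98.9 CPM in undifferentiated, 3.83, 6.17 and 8.2 CPM in differentiated and 38.7, 31.6 and 31.5 CPM in dedifferentiated replicates. The 3 ranges were far apart. Creb3l1 fell by 4.42 with dbcAMP (SE 0.28, edgeR adjusted p = 2.89e-07) and rose by 2.48 after withdrawal (SE 0.27, edgeR adjusted p = 4.03e-05), to a level below the undifferentiated one (log2 change -1.94, SE 0.24, edgeR adjusted p = 0.00017). The mean of the collagen gene Col1a1 was 17153, 6697 and 10827 CPM at the same stages, and that of Col1a2 was 8981, 7252 and 6455 CPM. After withdrawal Col1a1 rose by 0.71 (edgeR adjusted p = 0.00675), whereas Col1a2 was not called (log2 change -0.16, edgeR adjusted p = 0.259). A link between Creb3l1 and these collagen genes was not tested. Atf6b, the paralogue of Atf6, rose by 0.57 with dbcAMP (SE 0.08, edgeR adjusted p = 0.000166), and Nfya, a subunit of the ERSE-binding factor NF-Y, by 0.72 (SE 0.20, edgeR adjusted p = 0.00991, and 0.157 in the first project). Mbtps1, the site-1 protease, fell by 0.52 (SE 0.08, edgeR adjusted p = 0.000242). Creb3, another membrane-bound relative, rose by 0.55 after withdrawal (SE 0.10, edgeR adjusted p = 0.00139).

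Of 6 tested partners of IRE1 alpha, 2 were higher with dbcAMP (Tmbim6, 0.21, edgeR adjusted p = 0.0367, and Ptpn1, 0.29, edgeR adjusted p = 0.0403), 0 were called by edgeR after withdrawal (2 lower at an unadjusted p under 0.05, 0 by the DESeq2 Wald test) and Bax was lower over both steps (-0.35, edgeR adjusted p = 0.0453). The medians were 0.21, -0.11 and 0.07. Tmbim6, which restrains IRE1 alpha, and Ptpn1 were each lost when any of undifferentiated replicates 2 and 3, differentiated replicates 1 and 2 or dedifferentiated replicates 1, 2 and 3 was left out, and Bax over both steps when any of undifferentiated replicates 1 and 2, the 3 differentiated replicates or dedifferentiated replicates 1 and 2 was. The 2 calls with dbcAMP were 0 with DESeq2 size factors, without the 10 most abundant genes, with no filter on low counts and by the DESeq2 Wald test, 1 with the sequencing project as a covariate, and 4 without a composition factor. Bax was also lost with the project as a covariate (edgeR adjusted p = 0.0555) and without a composition factor (edgeR adjusted p = 0.0807). Without undifferentiated replicate 1 or dedifferentiated replicate 2 there was 1 call after withdrawal.

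**Figure D4:**
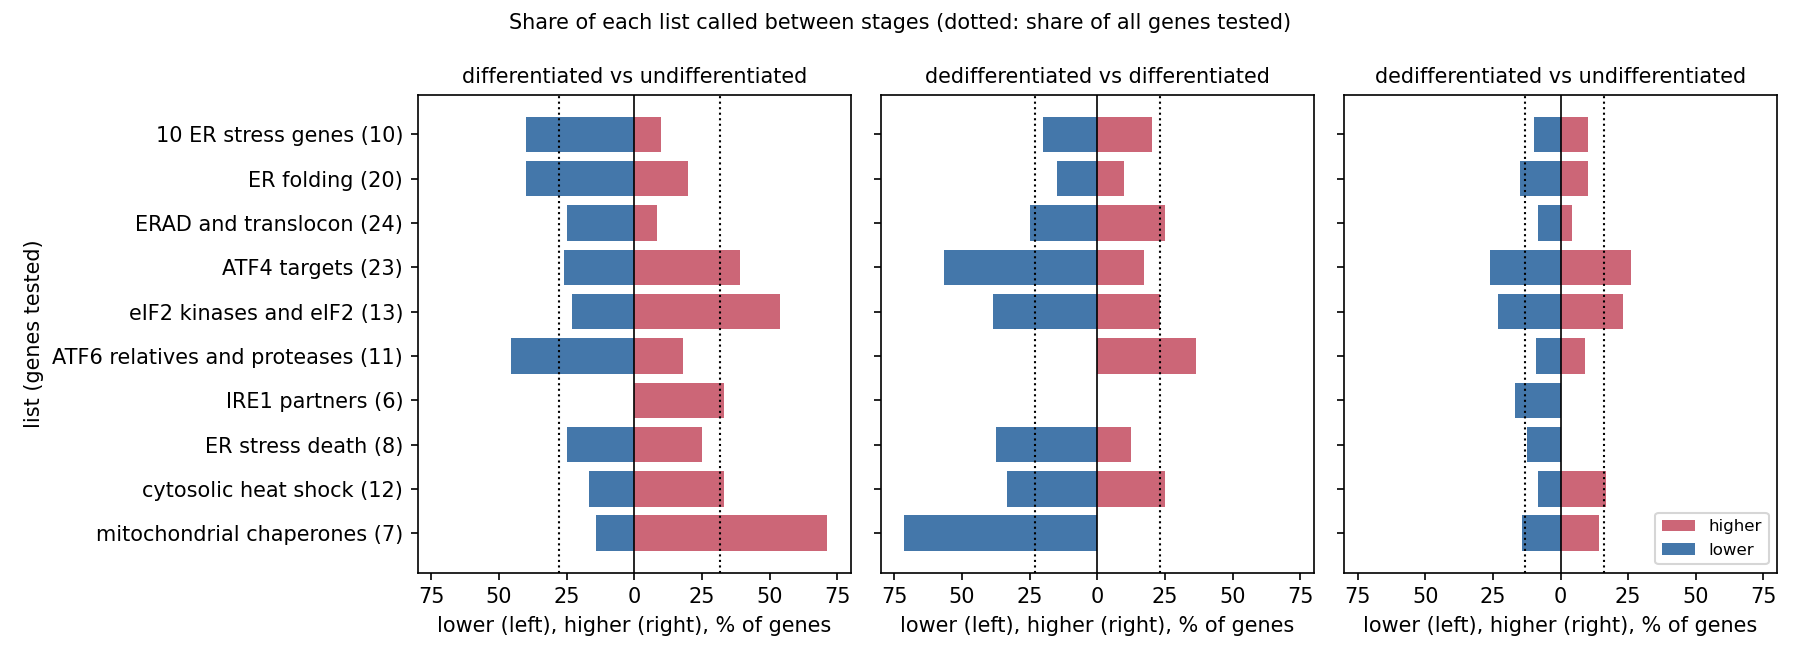
Percent of the tested genes of each list (y axis, number tested in brackets) that were called lower (left of 0, blue) or higher (right of 0, red) in the 3 comparisons. Dotted lines are the percent of all tested genes called in that direction. The 10 ER stress genes had 4 called lower and 1 higher with dbcAMP, and the bars of the third comparison are the shortest for most lists.

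Besides Hspa5, Hsp90b1, Dnajb9 and Sdf2l1, 20 other genes of ER protein folding were tested. With dbcAMP 4 were higher and 8 lower (median -0.14), and the 12 calls were 7 without differentiated replicate 2. After withdrawal 2 were higher and 3 lower (median 0.03). Over both steps 2 were higher and 3 lower (median -0.12), and these 5 calls were 3 without dedifferentiated replicate 2 and 8, 2 higher and 6 lower, by the DESeq2 Wald test. Sil1, the nucleotide exchange factor of BiP, rose by 0.71 with dbcAMP (SE 0.09, edgeR adjusted p = 8.11e-05), and the lectin chaperone Canx by 0.53 (SE 0.08, edgeR adjusted p = 0.000227). Dnajc10, a J-domain disulfide reductase that works with BiP, fell by 0.74 (SE 0.08, edgeR adjusted p = 1.15e-05) and rose by 0.44 after withdrawal (SE 0.08, edgeR adjusted p = 0.000866). The prolyl isomerase Ppib fell by 0.40 with dbcAMP (SE 0.08, edgeR adjusted p = 0.00115) and the disulfide isomerase Pdia6 by 0.49 after withdrawal (SE 0.08, edgeR adjusted p = 0.000798).

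Of 24 tested genes of ER entry and ER-associated degradation, 2 were higher and 6 lower with dbcAMP (median -0.13), 6 and 6 after withdrawal (median 0.05), and 1 and 2 over both steps (median -0.09). The last 3 calls were 1 without undifferentiated replicate 2 and 5 without dedifferentiated replicate 1. They were 9, 1 higher and 8 lower, by the DESeq2 Wald test. With DESeq2 size factors, without the 10 most abundant genes or with no filter on low counts they were 6, 1 higher and 5 lower. Without replicate 3 at every stage the calls after withdrawal were 5, 5 higher and 0 lower, and those over both steps 0. That fit had fewer libraries. Sec61b, a subunit of the translocation channel, fell by 1.18 with dbcAMP (SE 0.09, edgeR adjusted p = 1.83e-06) and rose by 0.75 after withdrawal (SE 0.09, edgeR adjusted p = 9.93e-05). The channel's pore subunit Sec61a1 fell by 0.35 after withdrawal (SE 0.09, edgeR adjusted p = 0.00682, and 0.0745 in the first project), so the 2 subunits moved in opposite directions there. Os9, a lectin that recognises misfolded glycoproteins, fell by 0.68 with dbcAMP (SE 0.07, edgeR adjusted p = 1.64e-05), and Vcp, the ATPase that pulls them from the membrane, rose by 0.41 (SE 0.08, edgeR adjusted p = 0.00133).

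The 16 tested genes with an ERSE in their window, Hspa5, Xbp1 and Hsp90b1 among them, did not share a direction. With dbcAMP 5 were called higher and 3 lower (median -0.11), after withdrawal 2 and 3 (median -0.04) and over both steps 1 and 2 (median -0.06), these last 3 being 1 without undifferentiated replicate 1. Canx, given above, rose with dbcAMP, while Calr, a soluble lectin chaperone of the same cycle, fell by 0.36 (edgeR adjusted p = 0.00979, and 0.0735 in the first project). Dnajc3 was not called (-0.14, edgeR adjusted p = 0.375). Calr and Dnajc3 are named here as ER chaperone genes, after their values were seen.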

How the data were processed

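Directional mRNA libraries were made from total RNA of cultured Schwann cells, 9 in all, per the labels' protocols. The authors deposited estimated counts per gene; the table's name gives salmon as their source. The submitters' processing notes also name FastQC, Trim Galore, cutadapt, STAR, HISAT2, SAMtools, Picard, bedtools, MultiQC and DESeq2 1.26.0, without role or order. The genome build and annotation are not given in the sources used here. Fractional values (1.15%) were rounded. Replicate suffixes in the column names differ from the titles, so columns were matched by library code and replicates numbered by title.

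Counts of all 9 libraries were fitted together with edgeR 4.0.16 (R 4.3.3) by its quasi-likelihood test, without covariates, after filterByExpr with a minimum count of 10 and TMM scaling of the column totals. P-values were adjusted by Benjamini-Hochberg over all 10372 genes tested and called under 0.05. Levels are CPM of the column total and are not compared between genes, since transcript lengths were not used. Counts were simulated for differentiated against undifferentiated cells (10372 genes, 200 changed in each of 3 draws). On these the fit recovered 85.7% of 2-fold and 97.8% of 4-fold changes, and 4.86% of its calls were false. The draws held far fewer changed genes than the 6179 called in the data, and no project or replicate effects. These shares were therefore not tested in a setting like the data. The 17 alternatives were a replicate block, sequencing project as a covariate, DESeq2 size factors, no composition factor, leaving out the 10 most abundant genes, no filter, the DESeq2 1.42.0 Wald test, leaving out each of the 9 libraries and leaving out replicate 3 at every stage.

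The members and lists were chosen with earlier results of these data known. From each list and comparison the genes named are at most 2 called higher and 2 called lower with the smallest p and without overlap between libraries, or some of these. Likeness used Pearson's r of log2 CPM with a prior count of 2 and no TMM factor. Changes in replicate 3 alone are differences of the same log2 CPM. Promoters were read from a RefSeq table on GRCr8 with Python 3.11.15. Listed genes without a row were not analysed here.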

Additional observations from a re-analysis of the deposited data

How the results depend on the processing

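Of 510 comparisons of a member's log2 change with an alternative (17 for each of 10 genes and 3 contrasts), 483 kept direction and side of the threshold, 18 lost a call, 4 gained one and 5 turned sign. In all 17 alternatives the calls on Xbp1 and Atf6 with dbcAMP and after withdrawal, Ddit3 after withdrawal and over both steps, and Dnajb9 with dbcAMP were kept. All 5 sign turns were uncalled changes after withdrawal: Hspa5 ranged from -0.18 to 0.025, Hsp90b1 from -0.12 to 0.040 and Sdf2l1 from -0.16 to 0.034 when 1 library was left out, and Hsp90b1 was 0.020 without replicate 3 at every stage. The count of members called ran from 3 to 5 with dbcAMP, 3 to 5 after withdrawal and 1 to 2 over both steps when 1 library was left out. Without replicate 3 at every stage it was 3, 3 and 1, and the counts over all genes were 4358, 2606 and 1283 against 6179, 4809 and 3045, with fewer samples in the fit. Over all genes the share of calls that were higher over both steps was 54.7% with TMM. It was 62.6% without a composition factor and 61.5% without replicate 3 at every stage. Scaling with DESeq2 size factors gave 49.1%, dropping the 10 most abundant genes 48.9%, and the DESeq2 Wald test 48.9%. Lower calls were thus the majority in these last settings, and the balance of directions over both steps depended on the setting. No scaling moved the median log2 change by over 0.1. Of 85 results on list genes, 54 were called in all 17 alternatives, 31 lost the call in some and 0 turned sign. All 85 were called in the fit of all 9 libraries. All but that on Calr were picked by smallest p and non-overlap, so these shares do not describe the lists as a whole.

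With the replicate number as a block, 6, 4 and 2 members and 6325, 5031 and 3256 genes were called, Atf4 with dbcAMP being the added member (0.22, edgeR adjusted p = 0.026). The block ended the call on Bax over both steps (-0.35, edgeR adjusted p = 0.0521) and gave 6 calls, 2 higher and 4 lower, in place of 3 among the degradation and translocation genes. Same-numbered libraries correlated at 0.0279 to 0.305 in their deviations from the stage means, over 0.1 in 7 of 9 pairs, and 7 of 9 libraries correlated best with their own number. The mean correlation of same-numbered libraries was 0.176. The mean for different numbers, -0.0839, largely follows from it, because deviations from a stage mean cancel within the stage. Replicate 3 also has its own sequencing project, so pairing and project cannot be told apart for it. Since 2 of the 9 pairs did not pass 0.1, the numbers were not taken as pairs, and the correlations are only a hint that they may be. Depth limits Ern1 and Ddit3 most, whose lowest counts were 99 and 117.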

Other observations

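Other stress systems were read in the same way. Of 7 mitochondrial chaperone and stress genes tested, 5 were higher and 1 lower with dbcAMP (median log2 change 0.68, against 0.05 for all tested genes) and 0 were higher and 5 lower after withdrawal (median -0.64), with 0 higher also at an unadjusted p under 0.05 and by the DESeq2 Wald test. Hspa9, the mitochondrial HSP70, rose by 0.98 (SE 0.08, edgeR adjusted p = 1.63e-06) and fell by 0.73 after withdrawal (SE 0.08, edgeR adjusted p = 3.39e-05), with means of 236 ± 3.23, 488 ± 17.4 and 292 ± 18.2 CPM (SD, n = 3). Trap1, the mitochondrial HSP90, rose by 0.76 (SE 0.08, edgeR adjusted p = 1.31e-05), and Hspd1, the mitochondrial chaperonin HSP60, fell by 0.65 after withdrawal (SE 0.08, edgeR adjusted p = 8.6e-05). Over both steps 1 was higher and 1 lower (median 0.12). These 2 calls were 1 without undifferentiated replicate 2, undifferentiated replicate 3 or dedifferentiated replicate 2 and 0 without dedifferentiated replicate 3. They were also 1 with DESeq2 size factors, without the 10 most abundant genes or with no filter on low counts. Without replicate 3 at every stage they were 0.

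Of 12 cytosolic heat shock genes, 4 were higher and 2 lower with dbcAMP (median 0.10), 3 and 4 after withdrawal (median -0.11), and 2 and 1 over both steps (median 0.07). Those last 3 calls were 1 without undifferentiated replicate 2, undifferentiated replicate 3 or dedifferentiated replicate 2, and 0 without replicate 3 at every stage. Hspa4, an HSP70 exchange factor, rose by 1.03 (SE 0.07, edgeR adjusted p = 4.43e-07) and fell by 0.93 after withdrawal (SE 0.07, edgeR adjusted p = 2.68e-06). The small heat shock protein Hspb1 fell by 1.68 with dbcAMP (SE 0.27, edgeR adjusted p = 0.000297) and rose by 1.73 after withdrawal (SE 0.27, edgeR adjusted p = 0.00043).

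Of 8 tested genes of cell death under ER stress, 2 were higher and 2 lower with dbcAMP (median -0.01), 1 and 3 after withdrawal (median -0.26), and 0 and 1 over both steps (median -0.32, with 0 higher also at an unadjusted p under 0.05 and by the DESeq2 Wald test). The 4 calls after withdrawal were 2 without dedifferentiated replicate 3 or without replicate 3 at every stage. The 1 call over both steps, on Casp12, was lost without undifferentiated replicate 1 or 3 or any 1 dedifferentiated replicate. It was also lost without replicate 3 at every stage. Bcl2l1, the anti-apoptotic BCL-XL gene, fell by 1.30 with dbcAMP (SE 0.11, edgeR adjusted p = 3.23e-06) and rose by 1.51 after withdrawal (SE 0.11, edgeR adjusted p = 2.9e-06), while Ddit3 rose at the same step. Casp12, the rodent ER-associated caspase gene, fell by 1.36 with dbcAMP (SE 0.25, edgeR adjusted p = 0.000758).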
